A study of Mus musculus with 6 samples.

Results

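The genes described here are 32 genes of hepatic stellate cells and of the extracellular matrix, chosen by symbol and read from a table of 55401 genes measured by RNA-Seq in mouse liver. They comprised 9 genes of the quiescent stellate cell, 3 contractile genes, 11 collagen genes, 4 proteoglycan or matricellular genes, 3 tissue inhibitors of metalloproteinases (TIMPs), the intermediate filament gene Vim and the cytokine gene Tgfb1. Livers of Asgr1-/- mice (3 samples) were compared with livers of WT mice (3 samples). All were males of the C57/BL6 background, aged 13 weeks and fasted overnight. Asgr1 encodes a subunit of the asialoglycoprotein receptor of hepatocytes. The Asgr1-/- line was made by CRISPR/Cas9 editing of zygotes, so the gene was lost in every cell type, and both genotypes came from crosses of Asgr1+/- parents. The labels number the samples within each genotype, without saying that each came from its own mouse, and name neither a liver injury nor a special diet.

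Stellate cells lie between the hepatocytes and the sinusoidal endothelium and store retinyl esters in lipid droplets. When the liver is injured they lose these droplets, take on contractile proteins such as alpha smooth muscle actin, and lay down fibrillar collagen, while TIMPs slow the breakdown of that matrix. TGF-beta and platelet-derived growth factor are the best known signals for this change, which is the main route to liver fibrosis. For that reason the quiescence genes are set beside the contractile genes, the fibrillar collagens and the TIMPs throughout.

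The libraries held between 19842637 and 22080809 reads in genes in the Asgr1-/- livers and between 20134006 and 21178121 in the WT livers. Asgr1 itself had 62, 40 and 36 reads in the Asgr1-/- livers, against 15894, 15463 and 11716 in the WT livers. Values per liver are given below in order of the replicate number, as CPM, the reads of a gene scaled to the reads in tested genes and to TMM factors. Levels of different genes are compared only as FPKM, which corrects for gene length. Fold changes are log2 values of Asgr1-/- over WT with their standard error (SE), from edgeR's quasi-likelihood test. A gene passed the test with an adjusted p under 0.05. Of the 32 genes, 21 reached an average of 1 FPKM over the 6 livers, called the higher floor below, and were tested among 10167 genes. The other 11, which included all 5 fibrillar collagens, came from a second fit of 16512 genes at a lower floor of 0.1 FPKM. The p-values measure the spread between these 6 samples, which may be partly technical.

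None of the 32 genes passed the test, in a comparison where 0.295% of all genes at the higher floor and 0.424% at the lower floor did. At the higher floor, 1 of the 21 genes had an unadjusted p under 0.05, against 15.5% of all genes. At the lower floor, 3 of the 32 did, Col4a2, Col4a1 and Col5a2, against 12.3% of all genes. DESeq2 at the higher floor called 1 of the 21, Col4a2, against 3.9% of all genes. The median log2 fold change of the 32 genes was 0.16, beside -0.02 over all genes of the lower floor, and 22 of the 32 were positive, against 47.5% of all genes. By group, the median was 0.07 for the 9 quiescence genes, 0.70 for the 3 contractile genes, -0.17 for the 5 fibrillar collagens and 0.69 for both chains of collagen IV. Leaving out single livers moved these medians between -0.14 and 0.29 for the quiescence genes, between 0.35 (without WT liver 2) and 1.66 (without WT liver 3) for the contractile genes, and between -0.28 and -0.02 for the fibrillar collagens, the last without Asgr1-/- liver 3. The bulk libraries mix all cells of the liver, so that fewer cells of a type and less RNA per cell cannot be told apart.

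**Figure D1:**
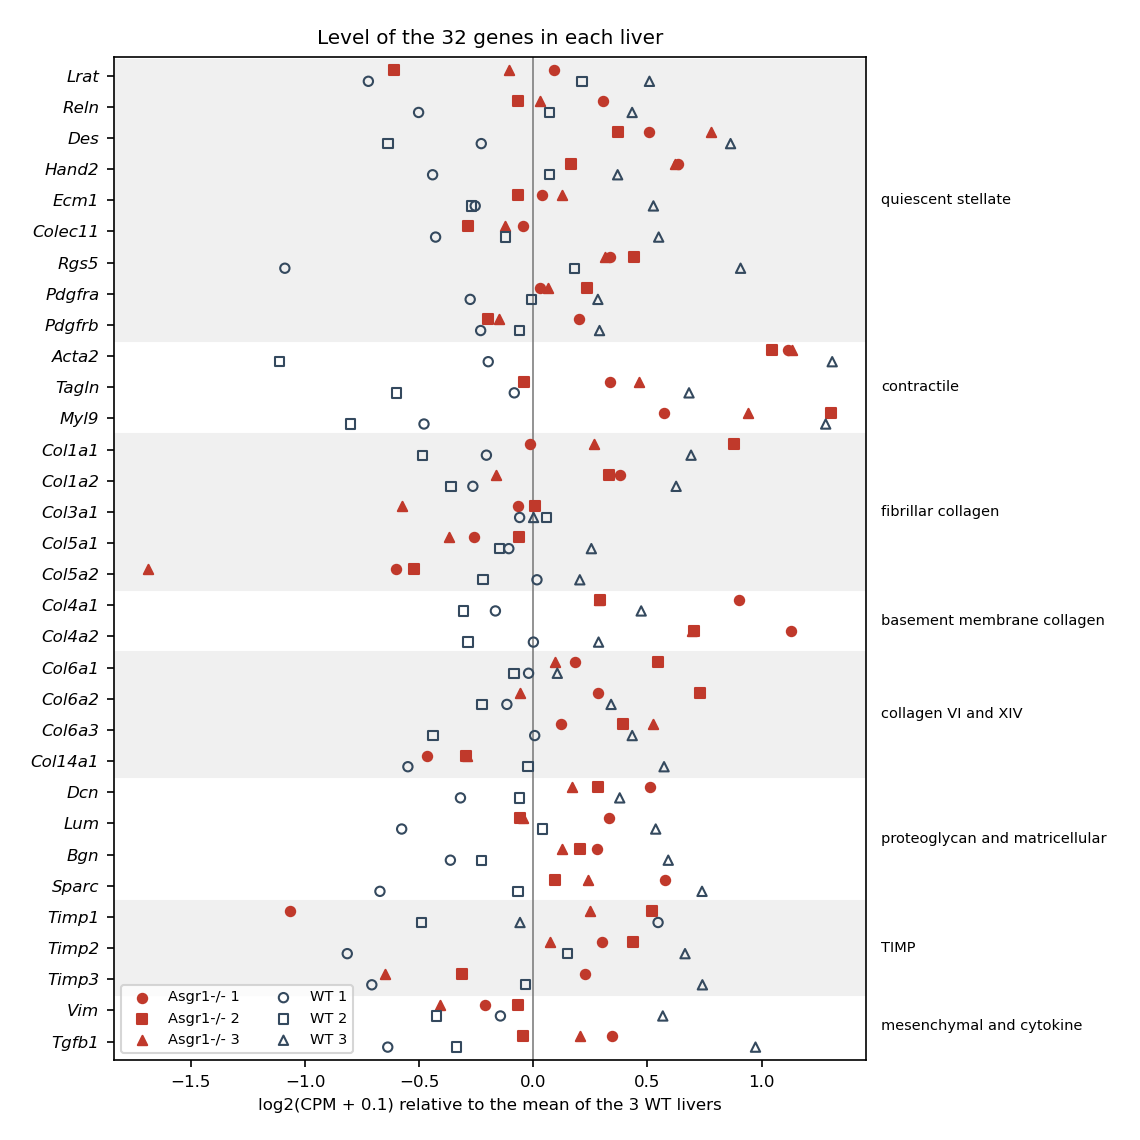
Level of each of the 32 genes in each liver, as log2(CPM + 0.1) minus the WT average; filled red symbols are Asgr1-/- livers, open symbols WT livers, and the bands mark the groups of genes. WT liver 3 (open triangles) was the highest WT liver for 30 of the 32 genes, and the Asgr1-/- livers lay apart from all WT livers only for Col4a2 (higher) and Col5a2 (lower).

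The plot of levels in each liver shows the pattern that ran through most of the list: the Asgr1-/- livers sat close together and the WT livers were spread widely around them. Of the 32 genes, 27 had a smaller SD of their log2 level among Asgr1-/- livers than among WT livers, against 64.2% of all genes, and at the higher floor 20 of the 21 did, against 66.3%. The median SD over the 32 genes was 0.22 in Asgr1-/- livers and 0.51 in WT livers, where all genes of the lower floor had 0.19 and 0.26. For 19 of the 32 genes the range of the Asgr1-/- livers fell inside the range of the WT livers, against 26.1% of all genes, and at the higher floor this was 15 of the 21, against 24%. WT liver 3 was the highest WT liver for 30 of the 32 genes, against 35.5% of all genes, and for all 21 at the higher floor, against 31.1%. The exceptions were Col3a1 and Timp1.

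**Figure D2:**
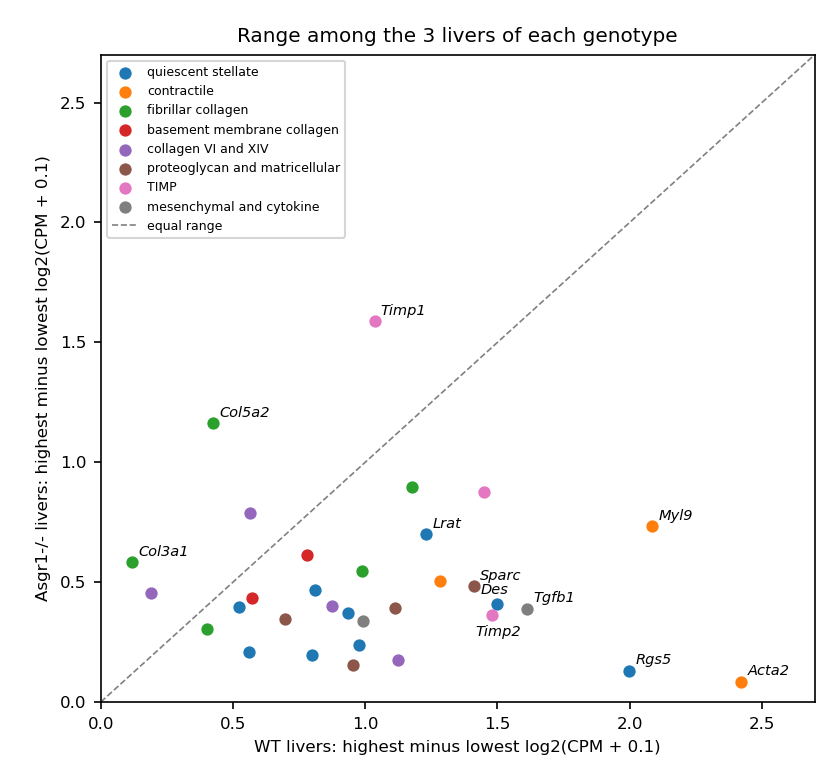
Range among the 3 Asgr1-/- livers (vertical axis) against the range among the 3 WT livers (horizontal axis), each the highest minus the lowest log2(CPM + 0.1), with 1 point for each of the 32 genes. Points under the dashed line, 27 of the 32, had the smaller range in Asgr1-/- livers; Acta2, Myl9 and Rgs5 lie farthest to the right, and 5 genes, among them Col3a1, Col5a2 and Timp1, lie above the line.

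The quiescent stellate cell genes were all detected in every liver, and their groups overlapped for all 9. The most abundant was Ecm1, a secreted matrix protein that hepatocytes also make, at 53.5 ± 3.46 FPKM in Asgr1-/- livers and 52.2 ± 18.4 FPKM in WT livers (SD, n = 3 each). Colec11, a soluble lectin of the complement system, followed at 16.0 ± 1.45 FPKM in Asgr1-/- livers and 17.8 ± 6.67 FPKM in WT livers. The remaining quiescence genes averaged under 5 FPKM in both genotypes.

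Lrat, the enzyme that esterifies retinol for storage, had 13.1, 8.02 and 11.4 CPM in Asgr1-/- livers, against 7.40, 14.3 and 17.5 CPM in WT livers. The WT livers held both the lowest and the highest value, and the log2 fold change was -0.27 (SE 0.30, adjusted p = 0.709, edgeR). Reln, which encodes the secreted glycoprotein reelin, had 30.8, 23.8 and 25.4 CPM in Asgr1-/- livers, against 17.5, 26.1 and 33.6 CPM in WT livers. Here too the Asgr1-/- livers lay between the WT extremes. For Rgs5, a regulator of G protein signaling found in pericytes, the CPM were 15.4, 16.5 and 15.1 in Asgr1-/- livers and 5.66, 13.8 and 22.9 in WT livers. The highest WT liver exceeded the lowest by a factor of 4.04, whereas the Asgr1-/- livers differed by a factor of at most 1.10.

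Des encodes desmin, an intermediate filament of muscle and stellate cells. It had 7.94, 7.22 and 9.60 CPM in Asgr1-/- livers, against 4.73, 3.54 and 10.2 CPM in WT livers. WT livers 1 and 2 were below every Asgr1-/- liver and WT liver 3 above them, with a log2 fold change of 0.42 (SE 0.35, adjusted p = 0.592, edgeR). Hand2, a transcription factor of mesenchymal cells, had 12.02, 8.67 and 11.93 CPM in Asgr1-/- livers, against 5.66, 8.11 and 9.996 CPM in WT livers. Its fold change was the largest of the quiescence genes at 0.46 (SE 0.23, adjusted p = 0.375, edgeR), and the groups overlapped. Its exons share 461 bases, 19.6% of its exonic length, with the antisense gene Hand2os1. The strand setting used in counting was not given in the sources used here, so reads of such pairs cannot be told apart.

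The receptors for platelet-derived growth factor had log2 fold changes close to 0. Pdgfrb had 6.96, 5.26 and 5.45 CPM in Asgr1-/- livers, against 5.14, 5.80 and 7.42 CPM in WT livers. Pdgfra had 3.33, 3.86 and 3.42 CPM in Asgr1-/- livers, against 2.67, 3.25 and 3.99 CPM in WT livers. The groups overlapped for both. The log2 fold change was -0.05 for Pdgfrb (SE 0.22, adjusted p = 0.931, edgeR) and 0.12 for Pdgfra (SE 0.25, adjusted p = 0.889, edgeR). Among their ligands and the soluble members of the family, only Pdgfa of a list of 4 genes reached the higher floor, at 6.21, 5.67 and 5.89 CPM in Asgr1-/- livers and 6.99, 6.25 and 7.07 CPM in WT livers (log2 fold change -0.19, SE 0.17, adjusted p = 0.628, edgeR). All its Asgr1-/- livers were below all WT livers, as for 10.9% of all genes of that floor. Such a gap was seen for 2 of the 4 genes, against 10.1% of all genes of the lower floor.

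Of the contractile genes, Acta2 and Myl9 had the most uneven WT livers of the list. Acta2, which encodes alpha smooth muscle actin and is the usual marker of the activated stellate cell, had 7.05, 6.72 and 7.13 CPM in Asgr1-/- livers, against 2.78, 1.43 and 8.08 CPM in WT livers. The Asgr1-/- livers were nearly equal, while WT liver 3 stood above them and WT livers 1 and 2 well below, a span among WT livers by a factor of 5.67. In reads this was 159, 134 and 144 in Asgr1-/- livers and 54, 29 and 160 in WT livers. The log2 fold change was 0.77 (SE 0.49, adjusted p = 0.493, edgeR), and the groups overlapped.

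Myl9, the regulatory light chain of smooth muscle myosin, had 3.73, 6.27 and 4.85 CPM in Asgr1-/- livers, against 1.75, 1.38 and 6.16 CPM in WT livers. Again WT livers 1 and 2 were the lowest of the 6 and WT liver 3 lay among the Asgr1-/- livers, with a log2 fold change of 0.67 (SE 0.51, adjusted p = 0.554, edgeR). Tagln, an actin-binding protein of smooth muscle, had 2.44, 1.85 and 2.67 CPM in Asgr1-/- livers, against 1.80, 1.23 and 3.13 CPM in WT livers. Its Asgr1-/- livers fell inside the WT range (log2 fold change 0.18, adjusted p = 0.847, edgeR), and 62.4% of its exonic bases lie under a gene on the opposite strand, Gm48529. A further 108 bases lie under Pcsk7, also on the opposite strand, which had up to 1039 reads in a liver, while Tagln had 25 to 62.

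For Acta2 and Myl9 the call depended on WT liver 3. With that liver left out, Acta2 had a log2 fold change of 1.73 (adjusted p = 0.0160, edgeR) and Myl9 one of 1.66 (adjusted p = 0.0270, edgeR), and at the lower floor Des had one of 1.00 (adjusted p = 0.0329, edgeR). Tagln had 0.62 at the higher floor and did not pass (adjusted p = 0.376, edgeR). Without WT liver 3, the genes that passed were Acta2, Myl9 and Col4a2, 3 of the 21 at the higher floor against 3% of all genes, and with Des 4 of the 32 at the lower floor against 2.97%. Over all 15 alternative settings at the higher floor, the adjusted p ranged between 0.0160 and 0.758 for Acta2 and between 0.0270 and 0.843 for Myl9, and this was the only setting of the 15 in which each passed. The same liver stood apart in the markers of some other cells. The summed level of 14 Kupffer cell markers was 346, 272 and 226 CPM in Asgr1-/- livers, against 102, 275 and 857 CPM in WT livers, and that of 14 liver endothelial markers 411, 307 and 331 CPM against 280, 352 and 547 CPM. WT liver 3 was the highest WT liver for all 14 markers of each list, and none of these markers was at 0 in any liver. It was also the highest for 7 of 8 markers of portal fibroblasts and smooth muscle. For cholangiocyte, mesothelial and hepatocyte markers it was the highest WT liver in 3 of 5, 1 of 5 and 1 of 8. The part of these cells in the values of WT liver 3 was not tested.

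Contractile genes of smooth muscle are classical targets of serum response factor, which binds the CArG box. The 250 bases before each RefSeq start site were searched on both strands for an exact CArG box. Of the 25 genes of the list with an entry in the promoter table, 1 held a match, Myl9, against 1.47% of all 32851 promoters. The bases before both its RefSeq and its GENCODE start are shown because Myl9 was one of the genes whose call rested on WT liver 3; they are chr2:156775214-156775419, plus strand of GRCm38.p6, from RefSeq, with the CArG box in capitals and its first base at position -161 from the RefSeq start.
Myl9: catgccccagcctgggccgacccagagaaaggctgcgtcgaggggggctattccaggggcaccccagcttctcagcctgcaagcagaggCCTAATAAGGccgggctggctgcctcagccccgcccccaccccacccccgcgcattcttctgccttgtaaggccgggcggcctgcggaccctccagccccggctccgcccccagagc
The entry for Acta2 had no exact match in this window, and Tagln had no entry and was not searched. A match is a description of these letters only.

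The fibrillar collagens each averaged under 1 FPKM over the 6 livers, and their fold changes had both signs. Col1a1 and Col1a2 encode the chains of collagen I, the main collagen of fibrotic scar, and averaged 0.68 ± 0.23 and 0.51 ± 0.10 FPKM in Asgr1-/- livers and 0.52 ± 0.25 and 0.44 ± 0.19 FPKM in WT livers (SD, n = 3 each). Col1a1 had 73, 122 and 80 reads in Asgr1-/- livers, against 55, 47 and 106 reads in WT livers, which is 3.24, 6.12 and 3.96 CPM against 2.83, 2.31 and 5.35 CPM. The highest value lay in an Asgr1-/- liver and the next in WT liver 3, and the log2 fold change was 0.37 (SE 0.34, adjusted p = 0.705, edgeR). Col1a2 had 7.05, 6.82 and 4.80 CPM in Asgr1-/- livers, against 4.47, 4.18 and 8.38 CPM in WT livers. Its Asgr1-/- livers fell within the WT range (log2 fold change 0.16, adjusted p = 0.866, edgeR).

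Col3a1, the homotrimeric collagen of reticular fibers, had 9.76, 10.3 and 6.83 CPM in Asgr1-/- livers, against 9.82, 10.7 and 10.3 CPM in WT livers. It was the gene of the list with the most even WT livers, and Asgr1-/- liver 3 was the low one (log2 fold change -0.17, adjusted p = 0.746, edgeR). Collagen V starts the assembly of collagen I fibrils. Its chain gene Col5a1 had 5.46, 6.27 and 5.05 CPM in Asgr1-/- livers, against 6.07, 5.90 and 7.83 CPM in WT livers, with a log2 fold change of -0.22 (adjusted p = 0.698, edgeR).

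Col5a2, the other chain of collagen V, was the 1 gene of the 32 that was lower in every Asgr1-/- liver than in every WT liver, where 10.1% of all genes of the lower floor were. It had 31, 29 and 12 reads in Asgr1-/- livers, against 42, 37 and 49 reads in WT livers, which is 1.37, 1.45 and 0.59 CPM against 2.16, 1.82 and 2.47 CPM. The log2 fold change was -0.89 (SE 0.38, unadjusted p = 0.0398, adjusted p = 0.376, edgeR), and it did not pass in any of the 14 alternatives of the lower floor that gave it a value (adjusted p between 0.347 and 0.742). Asgr1-/- liver 3 was the lowest of the 6 for Col5a2, Col3a1 and Col5a1. Col3a1 (45311538 to 45349706) and Col5a2 (45374321 to 45503282) lie near each other on chromosome 1 (GRCm38), whereas Col5a1 lies on chromosome 2.

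The smallest p of the list belonged to a chain of collagen IV, the network collagen of basement membranes. Col4a2 had 36.8, 27.3 and 27.2 CPM in Asgr1-/- livers, against 16.8, 13.7 and 20.5 CPM in WT livers. The lowest Asgr1-/- liver exceeded the highest WT liver. Such a gap was seen for 1 of the 21 genes at the higher floor, against 10.9% of all genes, and for 1 of the 32 at the lower floor, against 8.68%. The mean was 4.64 ± 0.90 FPKM in Asgr1-/- livers and 2.49 ± 0.53 FPKM in WT livers, with a log2 fold change of 0.84 (SE 0.18, adjusted p = 0.0829, edgeR). The call depended on the setting. Col4a2 passed in 3 of 15 alternatives at the higher floor, which were DESeq2 (log2 fold change 0.85, adjusted p = 0.00214), edgeR with no filter on low values (0.86, adjusted p = 5.1e-05), where 2.5% of all genes passed, and edgeR without WT liver 3 (1.00, adjusted p = 0.0219). Over the 15, its adjusted p lay between 5.1e-05 and 0.300, and its log2 fold change between 0.69 and 1.00 with single livers left out. At the lower floor Col4a2 did not pass in the main fit (adjusted p = 0.0648, edgeR) and passed in 5 of 15 alternatives. These were the same 3, edgeR with robust estimation (adjusted p = 0.0394) and edgeR with the replicate block (adjusted p = 0.0472).

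Col4a1 encodes the chain that joins the Col4a2 chain in the common collagen IV molecule. It had 29.0, 19.0 and 18.9 CPM in Asgr1-/- livers, against 13.8, 12.5 and 21.5 CPM in WT livers. WT liver 3 lay among the Asgr1-/- livers, and the log2 fold change was 0.49 (SE 0.24, adjusted p = 0.368, edgeR). Asgr1-/- liver 1 was the highest of the 6 for both chains. The ratio of Col4a2 to Col4a1 as FPKM was 1.43, 1.63 and 1.62 in Asgr1-/- livers, against 1.37, 1.24 and 1.07 in WT livers, so that these ratios did not overlap. The ratio was computed because of its values and is a description.

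Both genes lie head to head on chromosome 8, Col4a1 at 11198423 to 11312826 on the minus strand and Col4a2 at 11312805 to 11449287 on the plus strand (GRCm38). The 22 bases between their annotated starts, which both transcripts hold, are printed because this pair held the gene with the smallest p; they are chr8:11312805-11312826, plus strand of GRCm38.p6, from RefSeq, with a GC box (GGGCGG, searched on both strands) in capitals.
Col4a2 to Col4a1 start sites: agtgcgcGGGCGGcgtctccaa
A GC box stood in the 250 bases before the start of 32.7% of all promoters. Those bases held 2 for Col4a2 and 0 for Col4a1. The 22 bases printed here lie after both starts, outside such windows, so the share does not apply to them.

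**Figure D3:**
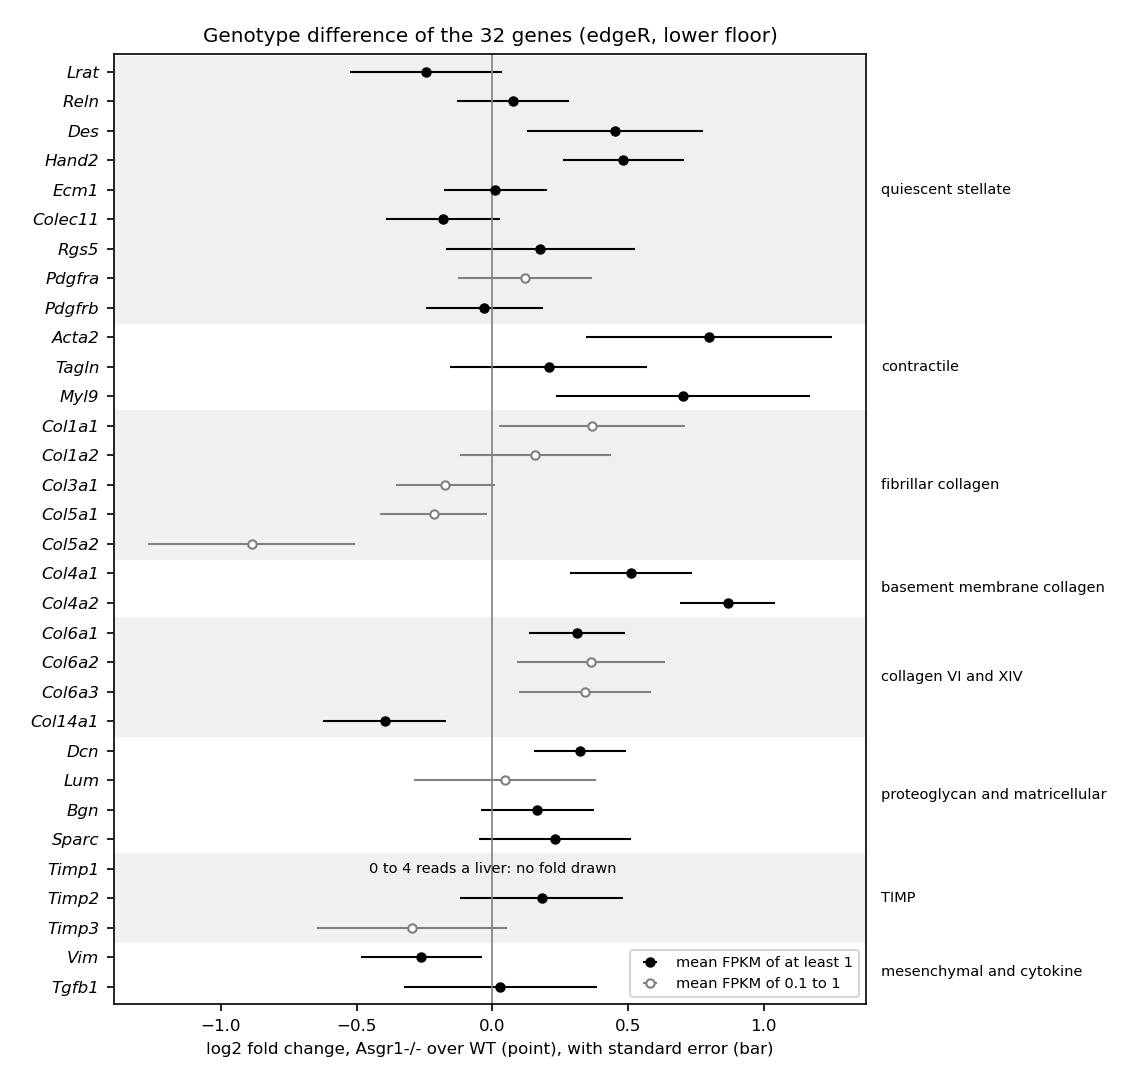
Log2 fold change of Asgr1-/- over WT (point) with its standard error (bar) for 31 of the 32 genes, all from the edgeR fit at the lower floor; open points averaged under 1 FPKM. Timp1 is left out for its few reads. Col4a2 at 0.87 and Col5a2 at -0.89 lie farthest from 0, and the bars of Acta2 and Myl9 are the widest among the filled points.

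The plot of fold changes shows collagen VI, the microfibrillar collagen around cells, on the positive side with all 3 of its chains. Col6a1 had 8.43, 10.9 and 7.92 CPM in Asgr1-/- livers, against 7.30, 6.98 and 7.98 CPM in WT livers, and a log2 fold change of 0.29 (adjusted p = 0.471, edgeR). Col6a2 and Col6a3 had log2 fold changes of 0.36 and 0.34, with overlapping groups and Asgr1-/- means of 0.53 and 0.56 FPKM against WT means of 0.40 and 0.43 FPKM. Col14a1, a collagen that sits on fibril surfaces, had 14.5, 16.3 and 16.3 CPM in Asgr1-/- livers, against 13.6, 19.7 and 29.8 CPM in WT livers. Its value went the other way (log2 fold change -0.42, SE 0.24, adjusted p = 0.442, edgeR), with the Asgr1-/- livers close together inside the WT range.

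Among the proteoglycan and matricellular genes, Dcn and Bgn, small leucine-rich proteoglycans that bind collagen and TGF-beta, were far more abundant per length than any fibrillar collagen. Dcn had 85.7, 73.0 and 67.4 CPM in Asgr1-/- livers, against 48.1, 57.6 and 78.1 CPM in WT livers (log2 fold change 0.30, adjusted p = 0.451, edgeR). Bgn had 64.3, 61.0 and 57.7 CPM in Asgr1-/- livers, against 41.1, 45.2 and 79.8 CPM in WT livers. For both, WT livers 1 and 2 were below every Asgr1-/- liver and WT liver 3 was not. As FPKM, Dcn averaged 13.0 ± 1.78 in Asgr1-/- livers and 10.2 ± 2.67 in WT livers (SD, n = 3 each). Sparc, a collagen-binding matricellular protein, had 34.2, 24.4 and 27.0 CPM in Asgr1-/- livers, against 14.3, 21.8 and 38.2 CPM in WT livers. Lum, the keratan sulfate proteoglycan lumican, had 63, 42 and 43 reads in Asgr1-/- livers, against 28, 46 and 64 reads in WT livers. WT liver 1 was the lowest and WT liver 3 the highest WT liver for all 4 genes, and their log2 fold changes lay between 0.05 and 0.32 at the lower floor.

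None of the TIMPs passed the test, and the one most tied to fibrosis had almost no reads. Timp1, the inducible inhibitor, had 0, 4 and 3 reads in Asgr1-/- livers, against 4, 1 and 2 reads in WT livers, too few for its fold change to be read. Timp2 had 8.25, 9.07 and 7.03 CPM in Asgr1-/- livers, against 3.75, 7.42 and 10.7 CPM in WT livers (log2 fold change 0.16, adjusted p = 0.847, edgeR). Timp3, the inhibitor bound to the matrix, had 6.08, 4.16 and 3.27 CPM in Asgr1-/- livers, against 3.14, 5.06 and 8.73 CPM in WT livers (log2 fold change -0.30, adjusted p = 0.778, edgeR). Both kept within the WT range. Exons of Timp3 share 21.3% of their length with Syn3 on the opposite strand.

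Vim, the intermediate filament vimentin of mesenchymal and many other cells, had 13.4, 14.7 and 11.6 CPM in Asgr1-/- livers, against 14.0, 11.5 and 23.0 CPM in WT livers. WT liver 3 stood above the other 5 livers (log2 fold change -0.29, adjusted p = 0.599, edgeR). Tgfb1, the cytokine that drives collagen synthesis in stellate cells, had 7.32, 5.56 and 6.63 CPM in Asgr1-/- livers, against 3.65, 4.52 and 11.4 CPM in WT livers. Means were 6.51 ± 0.88 CPM in Asgr1-/- livers and 6.51 ± 4.22 CPM in WT livers (SD, n = 3 each), a log2 fold change of 0.00 with an SE of 0.38.

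**Figure D4:**
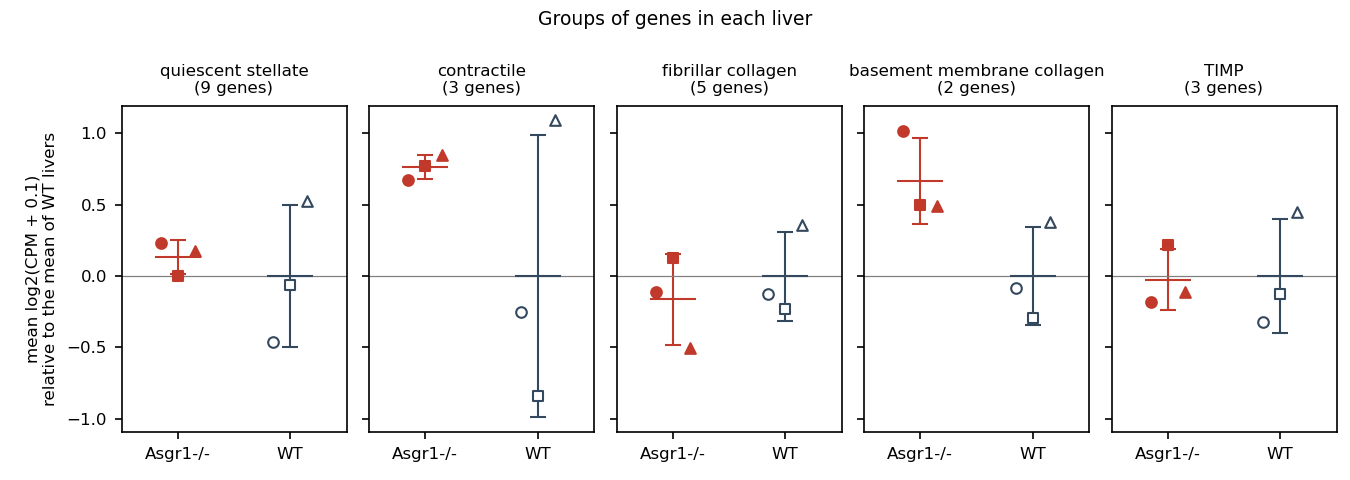
Mean log2(CPM + 0.1) of 5 groups of genes in each liver, minus the WT average, with Asgr1-/- livers on the left (red) and WT livers on the right of each panel; symbols are livers 1 (circle), 2 (square) and 3 (triangle), the horizontal bars the mean and the vertical bars the SD (n = 3 each). The contractile genes of the Asgr1-/- livers lay between 0.67 and 0.85, inside a WT range of -0.84 to 1.09; only the panel of collagen IV has groups that do not overlap.

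The groups of genes were then compared within each liver. The mean of the quiescence genes, relative to the WT mean, was 0.23, -0.00 and 0.17 in Asgr1-/- livers, against -0.46, -0.06 and 0.53 in WT livers. The mean of the contractile genes was 0.67, 0.77 and 0.85 in Asgr1-/- livers, against -0.25, -0.84 and 1.09 in WT livers. Taken as the difference from the quiescence genes of the same liver, the contractile genes were at 0.44, 0.77 and 0.67 in Asgr1-/- livers, against 0.21, -0.78 and 0.57 in WT livers. On this measure WT liver 2 was the low one, and Asgr1-/- liver 1 lay below WT liver 3.

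The fibrillar collagens minus the quiescence genes were at -0.35, 0.13 and -0.68 in Asgr1-/- livers, against 0.34, -0.17 and -0.17 in WT livers. The highest and the lowest values stood in different genotypes, with the remaining 4 livers mixed. For the TIMPs the differences were -0.41, 0.22 and -0.28 in Asgr1-/- livers, against 0.14, -0.06 and -0.08 in WT livers, and without Timp1 they were 0.03, 0.06 and -0.46 against -0.30, 0.12 and 0.18. Collagen IV minus the quiescence genes was at 0.78, 0.50 and 0.32 in Asgr1-/- livers, against 0.38, -0.23 and -0.15 in WT livers. The groups overlapped in each of these differences.

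The panel of groups by liver also shows that WT livers were ordered differently from group to group. WT liver 1 was the lowest WT liver for 7 of the 9 quiescence genes and all 4 proteoglycan and matricellular genes. WT liver 2 was the lowest for all 3 contractile genes, both collagen IV chains and 4 of the 5 fibrillar collagens. Over all genes of the lower floor, WT liver 1 was the lowest WT liver for 38.1% and WT liver 2 for 33%. Kupffer cell markers had WT liver 1 as the lowest WT liver in 14 of 14. Markers of portal fibroblasts and smooth muscle, which also carry contractile genes, summed to 23.9, 25.2 and 22.9 CPM in Asgr1-/- livers, against 13.8, 12.9 and 27.1 CPM in WT livers. These sums had the same order of WT livers as Acta2, with WT livers 1 and 2 close together. WT liver 2 was the lowest WT liver for 5 of the 8 markers and WT liver 1 for 3. The portal fibroblast markers Thy1, Gli1 and Cd34 had at most 1.16 CPM each, so the sums came mostly from the other markers. Of these 8 markers, 2 reached the higher floor, 0 passed the test and none was at 0 in any liver. Their part in the contractile values was not tested.

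Further genes of the same biology were read from lists drawn up beside the 32 genes. Of 19 further stellate cell markers, 9 reached the higher floor and 0 passed, with log2 fold changes between -0.37 and 0.30. Of 17 genes of collagen folding and crosslinking, 12 were tested and 0 passed. Of 10 matrix proteases, 6 were tested, 0 passed and 3 of the 6 had a positive log2 fold change. Mmp15, a membrane-bound metalloproteinase, had 61.8, 60.9 and 69.5 CPM in Asgr1-/- livers, against 37.4, 51.2 and 60.5 CPM in WT livers (log2 fold change 0.37, adjusted p = 0.331, edgeR). All its Asgr1-/- livers were above all WT livers, as for 10.9% of all genes of the higher floor. Adam17 and Adam10, next by p, went the other way (log2 fold changes -0.39 and -0.44, adjusted p = 0.354 and 0.386, edgeR).

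Of 19 genes of TGF-beta signaling, 11 were tested and 0 passed, with 2 at an unadjusted p under 0.05, where 15.5% of all genes of that floor were. Ccn2, the connective tissue growth factor gene that TGF-beta induces, had 8.12, 5.87 and 7.57 CPM in Asgr1-/- livers, against 5.14, 3.29 and 3.64 CPM in WT livers. All Asgr1-/- livers were above all WT livers, as for 10.9% of all genes of that floor. The log2 fold change was 0.84 (SE 0.24, adjusted p = 0.155, edgeR). Smad7, the inhibitory SMAD that TGF-beta also induces, went the other way, at 9.45, 7.97 and 12.3 CPM in Asgr1-/- livers against 15.5, 14.4 and 12.6 CPM in WT livers (log2 fold change -0.51, adjusted p = 0.228, edgeR). All its Asgr1-/- livers were below all WT livers, as for 10.9% of all genes of that floor. Of 25 other matrix genes, 9 were tested and 0 passed. The one with the smallest p was Col15a1, a basement membrane collagen, with 8.07, 12.8 and 12.4 CPM in Asgr1-/- livers against 2.73, 3.69 and 6.71 CPM in WT livers. Its groups did not overlap, and its log2 fold change was 1.34 (SE 0.32, adjusted p = 0.113, edgeR).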

How the data were processed

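The deposited table gives whole-number read counts and FPKM per gene, which the authors made from 1 RNA-Seq library per sample on GRCm38. The submitters' notes name DESeq2 1.6.3; the sources used here name no aligner, counter or strand setting. Recomputed FPKM differed from the deposited FPKM by at most 0.005. edgeR 4.0.16 (TMM, quasi-likelihood test, two-sided, Benjamini-Hochberg) was fitted to genes averaging 1 FPKM or more over the 6 livers. All fibrillar collagens fell under this floor, so group medians and the 11 genes under it came from a fit with a floor of 0.1, added after seeing the data. CPM used the tested genes' library size times the TMM factor. SE is the fold change over the square root of F. The scripts were tested on simulated data, where edgeR at the higher floor recovered 22.4% of 1.5-fold and 82.1% of 2-fold changes. Smaller changes could therefore be missed, and genes under that floor were not simulated. Chi-square per degree of freedom between livers of a genotype was at least 25.7, so no pair agreed within counting noise. Alternatives were other size factors, floors, DESeq2 1.42.0, limma 3.58.1, robust estimation, a replicate block and single livers left out. Members and lists were chosen with earlier results of these data known. The text names every member and, per further list, genes among the 3 with the smallest p. Fn1, Krt7, Sox9, Thy1, Gli1 and Cd34 were named outside that rule. Authors' own comparisons were not used. Sequences are from RefSeq; 25 of 32 genes had a promoter entry.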

Additional observations from a re-analysis of the deposited data

How the results depend on the processing

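Over 469 single alternatives for the 32 genes, 423 kept direction and side of the threshold, 5 passed it and 41 changed sign. Genes past the threshold numbered 30, against 70 with a floor of 0.1 FPKM, 618 with no filter, 396 with DESeq2, 84 with robust estimation, 11 and 16 with limma on log2(FPKM + 0.1) and log2(FPKM + 1), and 3 to 305 with single livers left out. Members past it numbered 0, against 1 (Col4a2) with no filter or DESeq2 and 0 to 3 with single livers left out; at the lower floor 1 with no filter, DESeq2, robust estimation or the replicate block, and 0 to 4 with single livers left out. Leaving out single livers moved the contractile median between 0.35 and 1.66, and the TIMP median (-0.03, the fitted value of Timp1, which rests on 0 to 4 reads a liver and is not read as a fold change) between -0.36 and 0.17. The cause was not tested. Same-numbered livers did not deviate together (correlations -0.142, 0.0392 and -0.0335). With 3 livers of each genotype this cannot settle whether the numbers pair livers. With the replicate block 23 genes passed.

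Near 0 in the main fit, Ecm1 turned positive with library totals (0.034), a floor of 0.1 FPKM (0.012), no filter (0.00062), limma (0.088 and 0.085) and the replicate block (0.033); Pdgfrb with limma (0.0045 and 0.0014); Tgfb1 with median-of-ratios factors (0.0027), library totals (0.048), the floor of 0.1 (0.029), no filter (0.019), DESeq2 (0.0023), limma (0.20 and 0.083) and the replicate block (0.16); Timp1 with limma and a pseudocount of 1 (0.0058). With single livers left out, 17 genes changed sign. Their log2 fold changes ran over Lrat -0.55 to 7.5e-05, Reln -0.16 to 0.29, Ecm1 -0.15 to 0.30, Colec11 -0.40 to 0.12, Rgs5 -0.23 to 0.69, Pdgfra -0.0081 to 0.25, Pdgfrb -0.19 to 0.11, Tagln -0.086 to 0.62, Col1a2 -0.014 to 0.53, Lum -0.20 to 0.34, Bgn -0.035 to 0.50, Sparc -0.071 to 0.66, Timp1 -0.66 to 0.58, Timp2 -0.15 to 0.54, Timp3 -0.58 to 0.14, Vim -0.48 to 0.055 and Tgfb1 -0.28 to 0.67. Depth limits Timp1, whose fitted values here only account for the count, and Col5a2 (12 to 49 reads).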

Other observations

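Matrix genes that hepatocytes make had mean levels of 1607 FPKM (Vtn), 131 FPKM (Col18a1) and 102 FPKM (Fn1), against 52.9 FPKM for Ecm1, the highest of the 32 genes. Vtn, which encodes vitronectin, had 3029, 3013 and 3279 CPM in Asgr1-/- livers, against 3351, 3524 and 3621 CPM in WT livers, and Col18a1, the gene of collagen XVIII, had 885, 861 and 902 CPM against 941, 993 and 988 CPM. For Vtn and Col18a1, every Asgr1-/- liver was below every WT liver, as for 10.9% of all genes of the higher floor, and neither passed the test (log2 fold changes -0.17 and -0.14, adjusted p = 0.486 and 0.534, edgeR). Fn1, the fibronectin gene, had 1183, 1204 and 1177 CPM in Asgr1-/- livers, against 1040, 1462 and 1139 CPM in WT livers, and the groups overlapped. Of 8 hepatocyte markers, 0 passed the test and 2 were lower in every Asgr1-/- liver, Alb (log2 fold change -0.27) and Ttr (-0.25).

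Cholangiocyte markers, read as a check on other cells, summed to 51.8, 59.6 and 64.7 CPM in Asgr1-/- livers, against 39.3, 39.6 and 52.3 CPM in WT livers. Epcam, a surface protein of biliary epithelium, had 6.61, 8.87 and 8.22 CPM in Asgr1-/- livers, against 0.87, 2.46 and 6.26 CPM in WT livers, and Krt19, a keratin of the same cells, had 8.21, 9.07 and 9.31 CPM against 1.65, 2.16 and 7.78 CPM. Neither passed the test (adjusted p = 0.277 and 0.281, edgeR). Krt7 also had Asgr1-/- livers above all WT livers, at 1.24, 1.86 and 1.63 CPM against 0.46, 1.03 and 1.01 CPM, while the groups overlapped for Spp1 (log2 fold change 0.19) and Sox9 (-0.02 at the lower floor). Of the 5 markers, 0 passed and 3 had all Asgr1-/- livers above all WT livers. That was so for 10.9% of all genes at the higher floor and 8.68% at the lower floor.

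Ratios were computed for 6 pairs of collagen chains and are described without a test. Groups overlapped for 4 of them, which were Col1a1 to Col1a2 and the 3 pairs of collagen VI, and not for collagen IV and collagen V. The ratio of Col5a1 to Col5a2 as FPKM was 4.45, 4.83 and 9.53 in Asgr1-/- livers, against 3.15, 3.63 and 3.55 in WT livers, with Asgr1-/- liver 3 resting on 12 reads of Col5a2. The ratio of Col1a1 to Col1a2 was 0.87, 1.70 and 1.56 in Asgr1-/- livers, against 1.20, 1.05 and 1.21 in WT livers, so that the WT livers lay within the Asgr1-/- range.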
